A study of Mus musculus with 8 samples.

Results

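The genes of fatty acid and glyceride synthesis and of cholesterol synthesis were followed in kidneys of mice with 2 different Umod mutations. The set holds 30 genes, 15 of fatty acid and glyceride synthesis and 15 of sterol synthesis, chosen by their gene symbol on the array platform, with older symbols counted and Scd1 not included. An array element is 1 spotted cDNA clone. Of the 30 genes, 23 had at least 1 element (13 of fatty acid and glyceride synthesis, 10 of sterol synthesis), with 35 elements of 20794 on the array, where 9030 different genes are named. A single value per gene was taken, from the element with the highest mean intensity over all arrays. Acaca, Srebf1, Srebf2, Insig1, Idi1, Lss and Nsdhl were not analysed here.

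Expression was measured in whole kidney of 4 male homozygous Umod A227T mutants, 17 weeks old, and of 4 male heterozygous Umod C93F mutants, 38 weeks old, by the study's methods; the sample labels give ages of 19 and 39 with no unit. Both alleles arose by ENU mutagenesis and were kept on the C3HeB/FeJ background, and both cause uromodulin-associated kidney disease, in which misfolded uromodulin is held back in thick ascending limb cells. A pool of wild-type males of the same line was the partner of each mouse on 2 two-colour cDNA arrays, the second with the dyes exchanged, which gave 16 arrays (4 littermates by the methods, 6 control animals by the labels). The pool counts as 1 control sample, so no test includes the variation among wild-type animals. Line, zygosity, age, pool and hybridisation series coincide, so that their parts in a difference between the lines cannot be told apart. In whole kidney RNA, fewer cells of a type and less RNA per cell cannot be told apart either.

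Cytosolic acetyl-CoA is the common starting material of both pathways. Fatty acid synthesis builds palmitate, which elongases and desaturases modify and acyltransferases place on glycerol, while sterol synthesis runs through mevalonate, farnesyl diphosphate and squalene to cholesterol. The transcription factors SREBP-1 (Srebf1) and SREBP-2 (Srebf2) drive many genes of both pathways, SREBP-2 mainly those of sterol synthesis, and in the kidney the proximal tubule carries out much of the lipid metabolism.

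The promoters of these genes were searched for short motifs bound by known regulators of lipid synthesis. RefSeq promoters (GRCm38.p6, 250 bases before to 50 after the transcription start) were given for 23 of the 30 genes, 11 of fatty acid and 12 of sterol synthesis. The entries of Fads1, Dgat1, Dgat2, Scd2, Fdps, Fdft1 and Sqle were not used here. Motifs were searched on both strands, and no 2 of them share letters in the sequences shown. The NF-Y box CCAAT stood in 7 of 11 promoters of fatty acid synthesis and in 11 of 12 of sterol synthesis, against 37.4% of 32851 promoters in the table. The Sp1 box GGGCGG stood in 4 of 11 and in 11 of 12, against 35.7%. The sterol regulatory element core TCACNCCAC was found in 1 of the 23 promoters, that of Hmgcs1, against 1.24% of all, and the E-box CACGTG in those of Elovl5 and Insig1, against 7.15%. These are matches of letters and not measured binding. The promoters printed here run in the direction of transcription with the motif matches in capitals. They are those of Elovl5 and Hmgcs1, a gene of each pathway at an adjusted p under 0.10 in A227T, and that of Cyp51, the sterol gene with the lowest ratio in C93F.
Elovl5, chr9:77917115-77917414, plus strand: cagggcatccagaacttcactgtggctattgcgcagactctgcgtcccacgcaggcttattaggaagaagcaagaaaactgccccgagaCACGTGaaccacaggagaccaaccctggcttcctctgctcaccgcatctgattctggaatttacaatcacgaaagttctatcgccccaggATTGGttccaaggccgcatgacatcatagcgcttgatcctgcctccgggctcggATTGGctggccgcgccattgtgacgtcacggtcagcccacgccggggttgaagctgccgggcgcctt
Hmgcs1, chr13:119690101-119690400, plus strand: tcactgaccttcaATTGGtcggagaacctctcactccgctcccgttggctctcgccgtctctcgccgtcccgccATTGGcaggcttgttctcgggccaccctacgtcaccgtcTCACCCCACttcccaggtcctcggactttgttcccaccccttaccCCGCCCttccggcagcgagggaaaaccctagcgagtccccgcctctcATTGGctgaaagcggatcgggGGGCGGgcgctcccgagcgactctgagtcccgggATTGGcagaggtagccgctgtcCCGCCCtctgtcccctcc
Cyp51, chr5:4104648-4104947, minus strand: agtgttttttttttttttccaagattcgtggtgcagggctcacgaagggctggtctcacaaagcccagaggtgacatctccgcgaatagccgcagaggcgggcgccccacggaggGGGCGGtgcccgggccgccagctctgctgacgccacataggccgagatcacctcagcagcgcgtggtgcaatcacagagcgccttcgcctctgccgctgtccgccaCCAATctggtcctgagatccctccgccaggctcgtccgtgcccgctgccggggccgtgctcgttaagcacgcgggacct
The Elovl5 promoter holds 1 E-box and 2 NF-Y boxes. That of Hmgcs1 holds 1 sterol regulatory element core, 4 NF-Y boxes and 3 Sp1 boxes. That of Cyp51 holds 1 NF-Y box and 1 Sp1 box.

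Ratios are given as log2 of mutant over wild-type pool, the mean of both arrays of each mouse. This direction is likely but not settled: the methods do not state which dye held the mutant, and the sign rests on the authors' processed ratios together with their supplementary legends. The names of the scans, read literally, would turn every sign. An element was tested where its foreground was at least 2 times its local background in either channel on both arrays of at least 3 mice. A gene was called at a Benjamini-Hochberg adjusted p under 0.10 (limma, over all tested elements) together with a fold over 1.4, a log2 ratio of 0.485. The C93F arrays were dimmer, with 15.3% to 42.3% of spots passing per array against 56.6% to 73.7% in A227T. Of 6 measured kidney markers, 5 were bright enough in each line. For the 23 genes the filter left 17 tested in A227T (10 of fatty acid, 7 of sterol synthesis) and 3 in C93F (Elovl5, Fads2 and Pmvk).

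None of these genes passed both limits in either line. In A227T, 0 of 17 tested genes were called, against 1.81% of all 9220 tested elements. In C93F, 0 of 3 were called, against 1.05% of 3343 elements. At an unadjusted p under 0.05 (limma) the set held 5 genes of 17 in A227T and 1 of 3 in C93F, where all tested elements held 1890 and 1061. By adjusted p alone, 3 of 17 were higher in A227T (Scd2, Elovl5 and Hmgcs1) and 0 lower, against 6.24% and 4.52% of all elements. Elovl5 entered this count through the mutant channel, in which it was the higher. With both channels required to reach 2 times the background it was not tested, and 2 of 9 genes were higher (Scd2 and Hmgcs1) and 1 lower (Me1) by adjusted p alone, against 11% and 8.34% of 5262 elements. In C93F 1 of 3 (Fads2) was higher and 0 lower by adjusted p alone, against 9.18% and 14.7%. The 95% interval of the limma fit lay inside the 1.4-fold limit in both directions for 15 of 17 A227T genes, all but Scd2 and Elovl5. In C93F it did so for 3 of 3. Over all tested elements it did so for 8577 of 9220 in A227T and 3258 of 3343 in C93F. The fit draws the spread of each element towards that of all. For Pmvk in C93F its SE was 0.11, while the SD over the 4 mice was 0.35. The background correction draws ratios of dim spots towards 0, so these intervals refer to the corrected scale. SAM, run here on the same ratios and the same filtered elements, also called 0 of these genes in either line. In C93F it could call only the 3 tested genes, and Cyp51 was not among them.

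**Figure D1:**
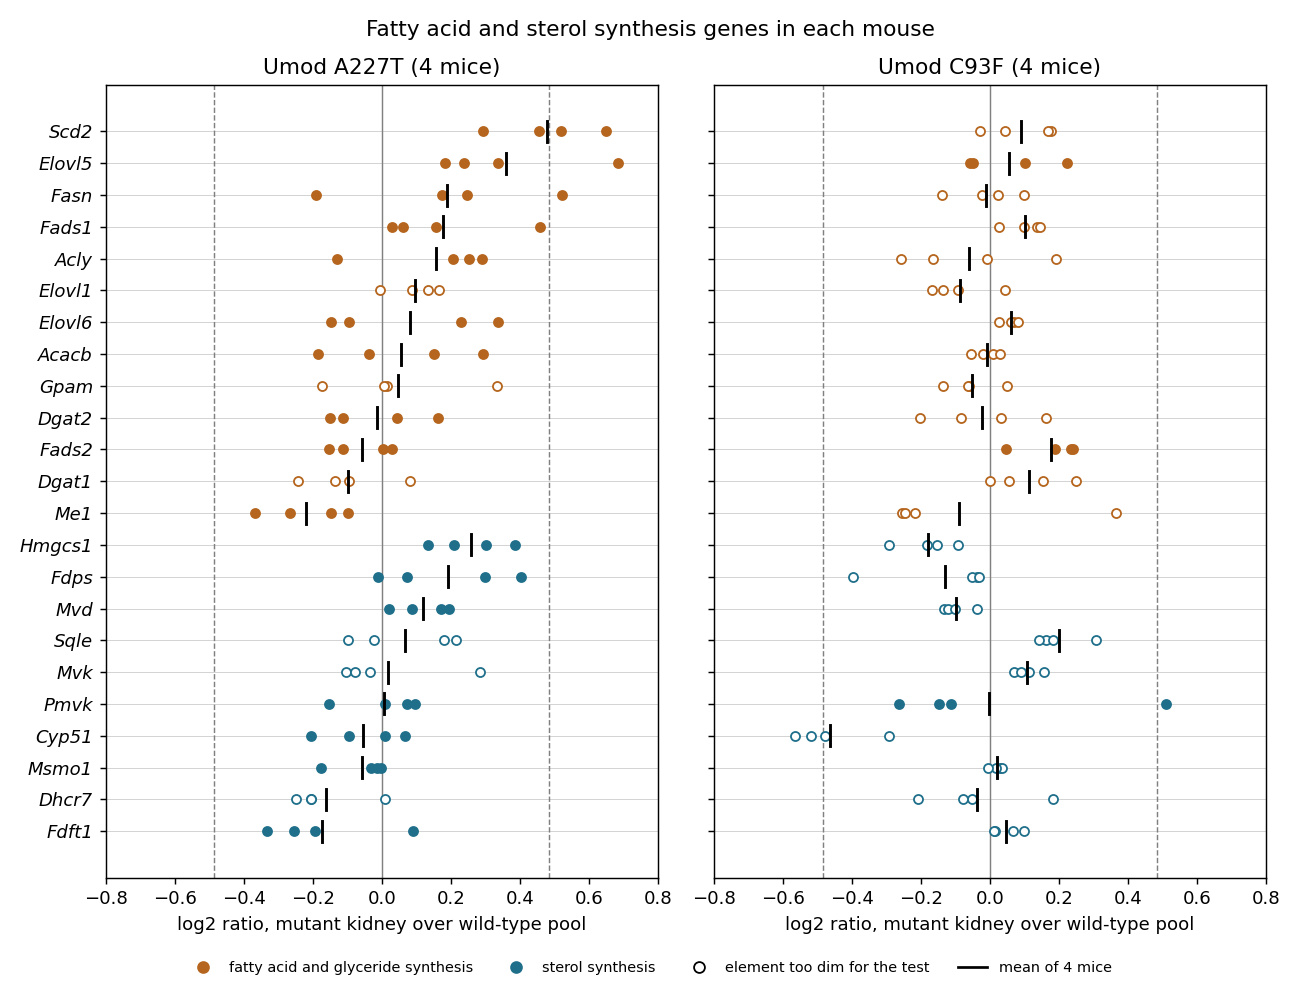
Log2 ratio of mutant kidney over wild-type pool (x axis) for each of the 23 measured genes (rows) in each of 4 A227T and 4 C93F mice, filled where the element was bright enough to be tested and open where it was not; black ticks are means and dashed lines the 1.4-fold limit. In A227T all mice of Scd2 lie between 0.29 and 0.65, while most genes in both panels straddle 0.

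Scd2 was the gene with the highest ratio in A227T. It encodes a stearoyl-CoA desaturase, which puts the first double bond into saturated acyl chains, and is a close relative of Scd1. The ratio was 0.29, 0.46, 0.52 and 0.65 in the 4 mice, so each of them lay above 0. The mean was 0.48 ± 0.15 (SD, n = 4; adjusted p = 0.00326, limma; 95% interval 0.31 to 0.65), a fold of 1.39, just under the limit. Its element reached 2 times the background on 7 of 8 arrays in the mutant channel and on 7 of 8 in the pool channel. Another 2 elements of Scd2 were also above 0 in all 4 mice, at 0.38 (adjusted p = 0.00726, limma) and 0.24 (adjusted p = 0.109). For the element at 0.24, only 4 of 8 arrays were bright enough in the pool channel, against 7 in the mutant channel. That element thus passed the filter through the group in which it was higher, and the size of its ratio is not exact. In C93F the first element was at 0.09 ± 0.10 (SD, n = 4), with neither channel at 2 times the background on any of 8 arrays, and the dimmer element shared with A227T was at 0.00, so Scd2 was not well above background there. The authors' processed ratios hold the first element in 3 C93F mice, from 0.0048 to 1.3 with a mean of 0.68 ± 0.65 (SD, n = 3). They hold the dimmer shared element at 0.13. The third element has no C93F value, since its position carries another clone in the C93F scans.

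Whether Scd2 passed the fold limit depended on the processing. Its ratio was 0.63 (adjusted p = 0.0321) with local background subtraction, 0.59 (adjusted p = 0.000561) with median centring and 0.49 (adjusted p = 0.00432) with scaling between arrays. In the authors' processed ratios, which hold this element in 3 A227T mice, it was 0.62 (adjusted p = 0.00266). All these are limma values and past both limits. Scd2 was also past both without mouse 1 (0.54, adjusted p = 0.00441) and without mouse 2 (0.49, adjusted p = 0.0208). Over all alternatives with no mouse left out on purpose its ratio ran from 0.37 to 0.63.

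Scd1, the related desaturase that is no member of the set, was higher in both lines, by 1.09 ± 0.25 in A227T (SD, n = 4; adjusted p = 5.08e-05, limma) and by 0.92 ± 0.13 in C93F (adjusted p = 1.25e-05). For Scd1 in C93F, only 4 of 8 arrays were bright enough in the pool channel, against 8 in the mutant channel. Scd1 thus passed the filter there through the group in which it was higher, and the size of its C93F ratio is not exact. Labelled Scd1 cDNA can bind a clone of a close relative. The part of Scd1 in the Scd2 signal was not tested. In C93F, where Scd1 was also called, the arrays were dimmer as a whole. The Scd2 elements were not well above background there, so they show nothing about such binding.

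Elovl5, an elongase of polyunsaturated acyl chains, followed Scd2 in A227T. Its ratio was 0.24, 0.18, 0.34 and 0.68 in the 4 mice. All lay above 0, and mouse 4 was the highest. The mean was 0.36 ± 0.23 (SD, n = 4; adjusted p = 0.0292, limma; 95% interval 0.17 to 0.56), a fold of 1.28. On 7 of 8 arrays the mutant channel reached 2 times the background, but the pool channel on 2 of 8, so the element passed the filter through the group in which it was higher, the size of the ratio is not exact, and it was not tested where both channels had to pass. It passed both limits only with local background subtraction, at 0.64 (adjusted p = 0.0577, limma), and its adjusted p was 0.144 without mouse 4 and 0.101 with no filter on dim spots. In C93F the same element was at -0.05, -0.06, 0.10 and 0.22, and the mean of 0.05 ± 0.13 (adjusted p = 0.507) did not differ from 0 beyond the spread between mice.

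The remaining genes that make or extend fatty acids had smaller ratios in A227T. Fasn, the fatty acid synthase, was at 0.19 ± 0.29 (SD, n = 4; adjusted p = 0.322, limma), with mouse 3 at 0.52 and mouse 4 at -0.19. Acly, which cleaves citrate to cytosolic acetyl-CoA, was at 0.16 ± 0.19 (adjusted p = 0.334), above 0 in 3 of 4 mice. Acacb, the acetyl-CoA carboxylase at mitochondria, was at 0.06 (95% interval -0.13 to 0.25). Elovl6, the elongase of palmitate, was at 0.08 on its brightest element and at 0.23 (adjusted p = 0.135) on the other of its 4 elements that was tested.

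The desaturases and the NADPH source of this pathway lay on both sides of 0 in A227T. Fads1, the delta-5 desaturase, was at 0.18 ± 0.20 (SD, n = 4; adjusted p = 0.267, limma) and above 0 in 4 of 4 mice. Fads2, the delta-6 desaturase, was at -0.06 ± 0.09 (adjusted p = 0.713), with a second element at 0.01. Me1, the cytosolic malic enzyme, which supplies NADPH, was below 0 in every mouse, at -0.27, -0.37, -0.10 and -0.15, with a mean of -0.22 ± 0.12 (adjusted p = 0.12). Its second element, which missed the filter in A227T, was at 0.21 ± 0.28 and so lay on the other side of 0.

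Genes of glyceride assembly stayed near 0 in A227T. Dgat2, a diacylglycerol acyltransferase, was at -0.01 ± 0.15 (SD, n = 4; 95% interval -0.19 to 0.16). Gpam, the mitochondrial glycerol-3-phosphate acyltransferase, and Dgat1 were too dim for the test, at 0.05 and -0.10, as was the elongase gene Elovl1 at 0.10.

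**Figure D2:**
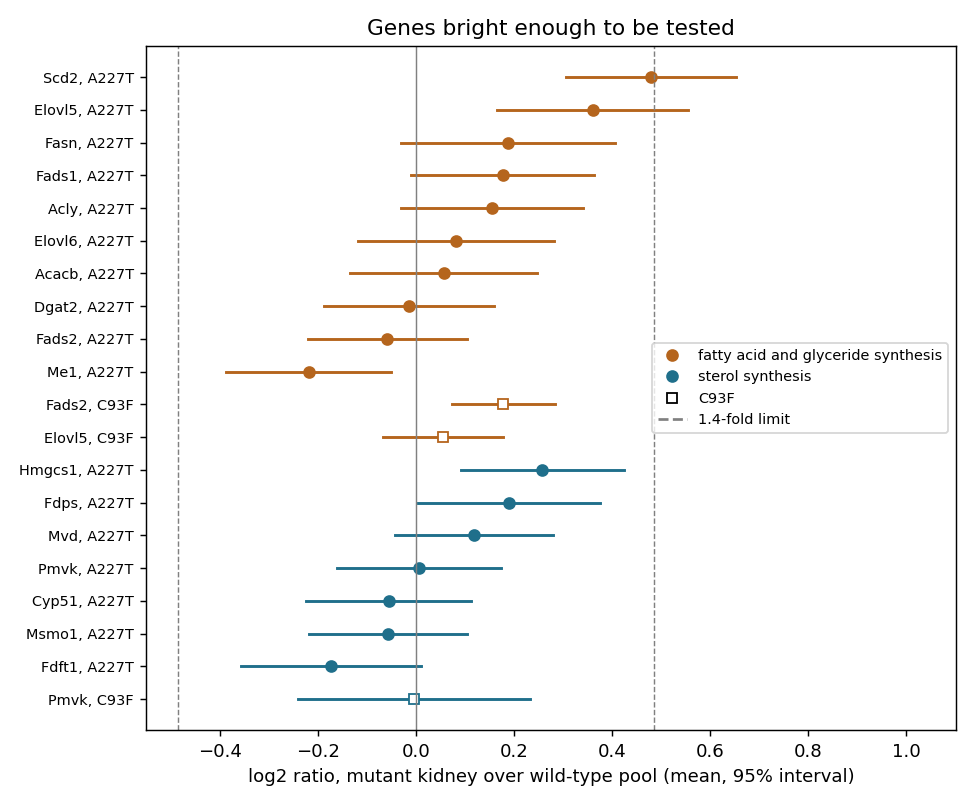
Mean log2 ratio of mutant over wild-type pool (x axis) with its 95% interval from the limma fit for each gene bright enough to be tested, 17 in A227T (circles) and 3 in C93F (squares), 4 mice each, with dashed lines at the 1.4-fold limit. The intervals of Scd2 and Elovl5 in A227T reach past the limit and the other 18 intervals lie inside it.

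Of the sterol synthesis genes in A227T, Hmgcs1 had the highest ratio. It encodes the cytosolic HMG-CoA synthase, the step before HMG-CoA reductase. The ratio was 0.30, 0.39, 0.21 and 0.13 in the 4 mice, all above 0. The mean was 0.26 ± 0.11 (SD, n = 4; adjusted p = 0.0645, limma; 95% interval 0.09 to 0.42), a fold of 1.20. Hmgcs1 lies under the log2 ratio of 0.3 used to select genes for such detail and was added after its values were seen. A second element that missed the filter was at -0.10 ± 0.17. The adjusted p of Hmgcs1 was 0.10 or higher with print-tip loess (0.113), with local background subtraction (0.116), with no filter on dim spots (0.157) and without mouse 1, 2 or 3 (0.215, 0.201 and 0.134).

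The genes between mevalonate and squalene showed no called change in A227T. Mvd, the mevalonate diphosphate decarboxylase, was above 0 in 4 of 4 mice at 0.12 ± 0.08 (SD, n = 4; adjusted p = 0.411, limma), and Fdps, the farnesyl diphosphate synthase, in 3 of 4 at 0.19 ± 0.19 (adjusted p = 0.232). Pmvk, the phosphomevalonate kinase, was at 0.01 (95% interval -0.16 to 0.17). Fdft1, the squalene synthase, was at -0.17 ± 0.18 (adjusted p = 0.269), and the 2 arrays of a mouse differed by 1.04 for it, in the median over mice. Mvk, the mevalonate kinase, at 0.02, and Sqle, the squalene epoxidase, at 0.07, were too dim for the test.

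Of the late steps from lanosterol to cholesterol, Cyp51, the lanosterol 14-alpha demethylase, was at -0.06 ± 0.12 (SD, n = 4; 95% interval -0.22 to 0.11) in A227T, with both channels at 2 times the background on all 8 arrays. Msmo1, the methylsterol monooxygenase, was at -0.06 ± 0.08 (95% interval -0.22 to 0.10). Dhcr7, the last reductase of the pathway, missed the filter, at -0.16 ± 0.12.

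As groups in A227T, the tested fatty acid and glyceride genes had a median ratio of 0.12 and the tested sterol genes of 0.01, beside 0.01 over all tested elements. The fatty acid median was 0.071 over the 4 genes left with both channels required and 0.054 without mouse 3. Over the genes measured at any brightness, the medians were 0.08 (13 genes) and 0.01 (10 genes). In the 4 mice the median of the 13 fatty acid genes was 0.09, 0.08, 0.17 and -0.01, and that of the 10 sterol genes 0.00, -0.02, 0.08 and 0.04. The fatty acid median was the higher of the pair in mice 1, 2 and 3 and the lower in mouse 4. The difference, sterol minus fatty acid, was -0.06 ± 0.07 (SD, n = 4) per mouse over all measured genes and -0.07 ± 0.12 over the tested ones. Of the 17 tested genes, 5 were higher in all 4 mice (Scd2, Elovl5, Fads1, Hmgcs1 and Mvd), against 15.5% of all elements. Lower in all 4 mice were 2 (Me1 and Msmo1), against 12.6%. For Elovl5, Fads1 and Mvd the pool channel reached 2 times the background on 2, 5 and 5 of 8 arrays. Their mutant channel, in which they were higher, did so on 7, 8 and 6. With both channels required these genes were not tested, so the count of 5 leans on that channel.

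**Figure D3:**
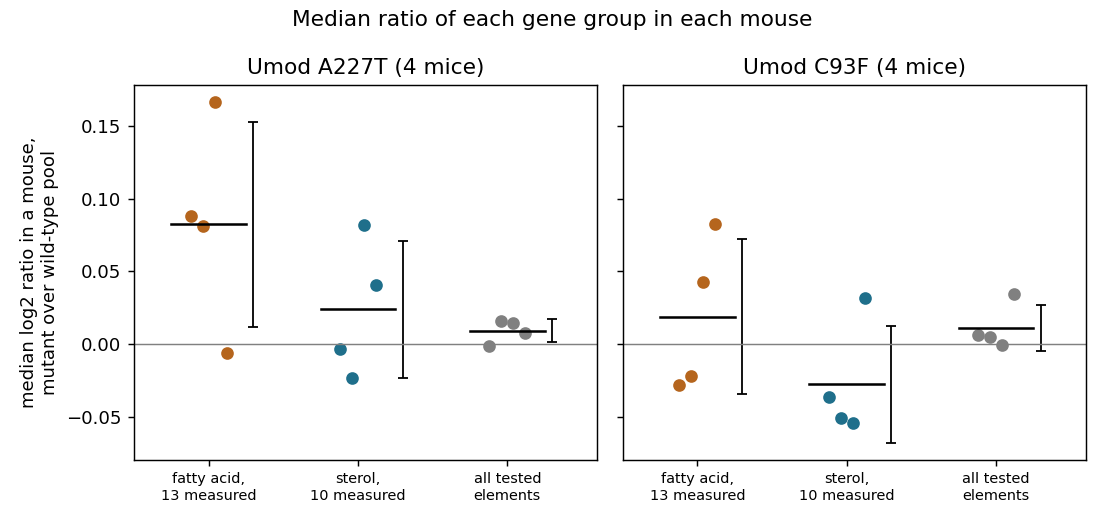
Median log2 ratio of mutant over wild-type pool (y axis) over the 13 measured fatty acid and glyceride genes, the 10 measured sterol genes and all tested elements, in each of 4 mice per line (points), with the mean over mice (line) and its SD (bar). In A227T the fatty acid medians run from -0.01 to 0.17, and in C93F the medians of both gene groups run from -0.05 to 0.08.

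Precision was limited by the arrays as well as by the mice. The 2 arrays of a mouse with exchanged dyes differed by 0.31 in the median over the 17 tested genes in A227T, the same as the 0.31 over all tested elements. For 16 of the 17 genes, all but Hmgcs1, this gap was larger than the ratio itself, as for 8120 of all 9220 tested elements. The gap also holds any effect of the dye on an element, which cancels in the mean of the 2 arrays.

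In C93F most of the set could not be tested. Fads2 had a ratio of 0.19, 0.24, 0.05 and 0.24 in the 4 mice, above 0 in each. The mean was 0.18 ± 0.09 (SD, n = 4; adjusted p = 0.0299, limma; 95% interval 0.07 to 0.28), a fold of 1.13. It was 0.059 (adjusted p = 0.346) with print-tip loess, 0.078 (adjusted p = 0.707) in the authors' ratios and 0.043 (adjusted p = 0.504) over both elements of the gene, and its adjusted p was 0.279 with no filter on dim spots and 0.111 without mouse 2 or without mouse 4. A second, dimmer element of Fads2 that was also tested went the other way, at -0.09 ± 0.08 (adjusted p = 0.194). Pmvk was at -0.11, -0.26, -0.15 and 0.51, so that mouse 4 alone lay above 0 and the mean was 0.00 ± 0.35 (adjusted p = 0.98). For Me1 the brightest element missed the filter at -0.09 ± 0.30, while the second was tested and was at -0.19, -0.35, -0.24 and -0.37, a mean of -0.29 ± 0.09 (adjusted p = 0.00326) and 1.22-fold lower.

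Cyp51 had the lowest ratio of the set in C93F and was singled out after its values were seen. The 4 mice were at -0.29, -0.57, -0.48 and -0.52, a mean of -0.46 ± 0.12 (SD, n = 4), with no test because the element was too dim. Its mutant channel reached 2 times the background on 0 of 8 arrays and its pool channel on 5 of 8. As a rough bound for Cyp51, without a test or interval, the mean pool signal over all 8 arrays lay 1.15-fold above a floor. The floor was the lowest signal well above background in the mutant channel of each array, or the element's own if higher. This lowest signal comes from any spot of the array, so it is no detection limit of this element. The bound takes channel intensities after loess and scaling between arrays, and each channel holds either dye on 4 of the 8 arrays. Its second element, dimmer still, was at 0.01 ± 0.14. With no filter on dim spots the brighter element had an adjusted p of 0.018 (limma) at the same ratio, under the fold limit, and in the authors' processed ratios it was at -0.78 (adjusted p = 0.168). In A227T it was at -0.06, and the difference between the lines was tested for it only with the authors' ratios and with no filter, being called with the former (0.81, adjusted p = 0.00544).

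The other genes too dim for the test in C93F had ratios between -0.18 and 0.20. Hmgcs1 was at -0.18 ± 0.08 and Mvd at -0.10 ± 0.04, below 0 in 4 of 4 mice each, Sqle at 0.20 ± 0.07 and Mvk at 0.11 ± 0.04, above 0 in 4 of 4 (all SD, n = 4). Hmgcs1 and Mvd were above 0 in every A227T mouse. The mice of the lines thus lay on opposite sides of 0 for 2 of 23 genes, against 2.61% of 20532 elements at any brightness. The second element of Hmgcs1 was at -0.10 in A227T and -0.14 in C93F, on the same side of 0. Fasn, at -0.01 ± 0.10, and Acly, at -0.06 ± 0.20, lay on both sides of 0. These values sit close to the background, where ratios have little information, and are given without a test. Over all measured genes the median was -0.01 for fatty acid and -0.02 for sterol synthesis, beside 0.02 over all tested elements. Over the tested genes alone the medians were 0.12 (2 genes) and 0.00 (1 gene).

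The lines could be compared directly for 3 genes, those tested in both. Of these, 0 were called in A227T minus C93F, against 5.25% of 2171 elements. By adjusted p alone Elovl5 was the 1 gene higher in A227T (0.31 ± 0.11, SE; adjusted p = 0.0557, limma; 16.2% of elements) and Fads2 the 1 lower (-0.24 ± 0.08, SE; adjusted p = 0.0549; 12.2% of elements). Pmvk differed by 0.01 (95% interval -0.27 to 0.29). The second element of Fads2 gave 0.10 (adjusted p = 0.44), and the difference of Elovl5 passed the fold limit too with local background subtraction, at 0.55 (adjusted p = 0.0442). Its adjusted p was 0.10 or higher with median centring (0.109), with no filter on dim spots (0.254), without A227T mouse 4 (0.147) and without C93F mouse 1 or 2 (0.152 and 0.149), and with no background correction it stood at 0.1. The difference of Fads2 was -0.060 (adjusted p = 0.601) with print-tip loess, -0.070 (adjusted p = 0.546) over both elements and -0.20 (adjusted p = 0.118) with median centring. Its adjusted p was 0.249 with no filter on dim spots, 0.109 without A227T mouse 3, and 0.122, 0.145 and 0.142 without C93F mouse 1, 2 or 4.

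Further genes of the same pathways were mostly uncalled as well. Of 35 other fatty acid and glyceride genes, 17 were tested in A227T and 8 in C93F, and 0 were called in either line (4 and 3 at an unadjusted p under 0.05, limma). Of all tested elements, 1.81% and 1.05% were called. By adjusted p alone, 2 were higher in A227T, Thrsp, a lipogenic regulator, at 0.35 (mutant channel at 2 times the background on 6 of 8 arrays, pool channel on 3, so that it passed through the group in which it was higher) and Idh1 at 0.26, and 2 were lower in C93F, Idh1 at -0.36 and Slc25a1, the mitochondrial citrate carrier, at -0.16. Of all tested elements, 6.24% were higher in A227T and 14.7% lower in C93F by adjusted p alone. The medians of the 17 and 8 tested genes were 0.05 and -0.02. Of 22 other sterol genes, 8 were tested in A227T and 3 in C93F, and 0 were called (2 and 1 at an unadjusted p under 0.05). By adjusted p alone 1 was higher in C93F, Ggps1, the geranylgeranyl diphosphate synthase, at 0.17, against 9.18% of all elements. Its mutant channel reached 2 times the background on 7 of 8 arrays and its pool channel on 5, so that it passed through the group in which it was higher.

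Among these further genes, Idh1, the cytosolic isocitrate dehydrogenase, which supplies NADPH, was called in the difference between the lines. In A227T its ratio was 0.30, 0.07, 0.49 and 0.19, a mean of 0.26 ± 0.18 (SD, n = 4; adjusted p = 0.0828, limma), and in C93F it was -0.42, -0.20, -0.40 and -0.43, a mean of -0.36 ± 0.11 (adjusted p = 0.00139). The mice of the 2 lines lay on opposite sides of 0, as for 2.61% of 20532 elements at any brightness. The difference between the lines was 0.63 ± 0.10 (SE, adjusted p = 0.000471, limma), past both limits, as for 5.25% of 2171 elements. Idh1 was singled out after its values were seen. Of the marker genes treated next, Lpl (0.61, adjusted p = 0.000724, limma) and Slc34a1 (0.55, adjusted p = 0.000314) also passed both limits in this difference.

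Markers of other cells were read beside these values. Of 15 adipocyte markers, 11 were measured in A227T and 4 tested. Of these 4, 3 were called higher at 0.50 to 0.82 (adjusted p = 0.000232 to 0.0138, limma), against 1.81% of all tested elements called in either direction. The median over the 11 was between 0.00 and 0.25 in the 4 mice. Adipoq (0.19) and Plin1 (-0.08), which define adipocytes, were too dim for the test. In C93F 2 were tested and 0 called, with Lpl, the lipoprotein lipase, lower by adjusted p alone at -0.39 (adjusted p = 0.000777). The part of fat tissue in the ratios of the lipid genes was not tested. Adrenal cortex markers, a tissue rich in sterol synthesis next to the kidney, were too dim for the test in A227T for 7 of 7 measured genes (-0.17 to 0.15). Leukocyte markers gave 0 calls of 3 tested in A227T and 0 of 2 in C93F, and by adjusted p alone Lyz2 was higher in A227T at 0.35 (adjusted p = 0.0158, 4 of 4 mice). Kidney markers gave 0 calls of 5 tested in A227T and 2 of 5, both lower, in C93F (-0.64 and -0.53), against 1.81% and 1.05% of all tested elements. By adjusted p alone, Aqp2, a collecting duct water channel, was higher in A227T at 0.48 (adjusted p = 0.00717, a fold of 1.396, beside 1.39 for Scd2) and Slc22a6, a proximal tubule anion transporter, lower at -0.26 (adjusted p = 0.0666), and Umod (-0.32, adjusted p = 0.00355) and Aqp1 (-0.14, adjusted p = 0.0537) were lower in C93F. Of all tested elements, 6.24% were higher and 4.52% lower in A227T by adjusted p alone, and 14.7% were lower in C93F. The part of a change in tubule cells or leukocytes in the ratios of either line was not tested.

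**Figure D4:**
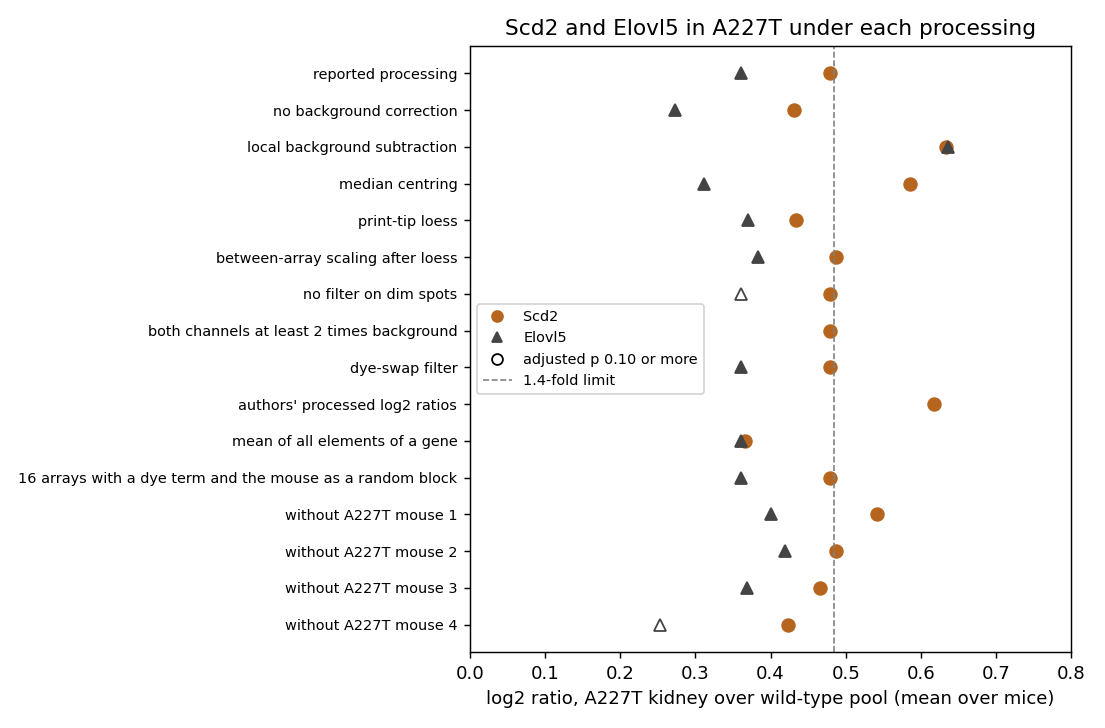
Log2 ratio of Scd2 (circles) and Elovl5 (triangles) in A227T over wild-type pool (x axis) under the reported processing, each alternative and each mouse left out (rows), filled where the adjusted p was under 0.10; the dashed line is the 1.4-fold limit. Scd2 ran from 0.37 to 0.63 and Elovl5 from 0.25 to 0.64, so that both lay above 0 throughout, on either side of the limit.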

How the data were processed

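The authors deposited, for each array, the scanner's red and green foreground and local background intensity per spot, before any normalization, and a table of processed log2 ratios per mouse, whose scale fits log2 and whose centring and direction are not stated (column medians 0.00725 to 0.0467). By the methods, the authors removed elements that failed checks of background or of agreement between dyes, and used SAM for calls. Here, with R 4.3.3 and limma 3.58.1, intensities were corrected by normexp (offset 50) and loess within arrays, spots marked as not found had no weight, signs were turned to mutant over pool, and the 2 arrays of a mouse were averaged. Spots were joined by position, and 217 positions carry another clone in the C93F scans, which were kept apart. Each of 12771 positions is named with 1 gene on the platform; current symbols were taken through the gene ID. The C93F scans labelled mouse 1 fitted the authors' column labelled mouse 2 and the reverse, which leaves means as they are. 

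Ratios were tested against 0, and A227T against C93F over all 8 mice, with lmFit and eBayes, adjusted over all tested elements. Every-mouse values are given for members called, or at an adjusted p under 0.10 with a log2 ratio beyond 0.3. Hmgcs1, Fads2, Cyp51, Me1, Pmvk and, outside the set, Idh1 were singled out after their values were seen. The members and lists were chosen with earlier results of these data known. Nothing says that mice were prepared independently, so p-values measure the spread between these mice. Scripts were tested on simulated data. The number of arrays limits the precision, and 0 columns were left unassigned. RT-qPCR, histology and protein data were not analysed here. Alternatives covered background correction, normalization, filters, thresholds, SAM, array models, the authors' ratios and omission of each mouse.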

Additional observations from a re-analysis of the deposited data

Results flagged for a closer look

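Of 50 sets of 4 mice examined (23 genes and 2 group medians in each line), 2 had a mouse far from the other 3; chance alone gives about 1 in 20. The brightest element of Me1 in C93F was at 0.36 in mouse 3 and between -0.26 and -0.22 in the others, a gap of 0.94 of the whole range. For Fdps in C93F, mouse 4 was at -0.40 and the others between -0.05 and -0.03, a gap of 0.948 of the range. Both elements were too dim for the test.

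Every A227T mouse was above 0 and every C93F mouse below 0 for 2 of the 23 genes, Hmgcs1 and Mvd, early steps of sterol synthesis, and for 0 genes the other way round, where 2.61% of 20532 elements at any brightness were parted in either direction. The means of the lines differed by 0.44 for Hmgcs1 and by 0.22 for Mvd. Both elements were too dim in C93F for the reported test of the difference. With the authors' processed ratios the difference of Hmgcs1 was called on its brightest element (0.70, adjusted p = 0.00885, limma), which they hold in 3 A227T and 4 C93F mice. That of Mvd was not tested there. A second, dimmer element of Hmgcs1 was at -0.10 in A227T and -0.14 in C93F, so it did not part the lines.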

How the results depend on the processing

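The count of called genes in A227T, 0 as reported, was 2 with local background subtraction (Scd2 and Elovl5), 1 with median centring, with scaling between arrays and with the authors' ratios (Scd2 each time), and 3 by adjusted p alone; it ran from 0 to 1 with a mouse left out. In C93F the count was 1 by adjusted p alone and 0 otherwise. For the difference between lines it was 1 with local background subtraction (Elovl5), 2 with the authors' ratios (Hmgcs1 and Cyp51) and 2 by adjusted p alone, and 0 with any mouse left out.

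The A227T sterol median, 0.01 as reported, was 0.076 with median centring, 0.062 with the dye-swap filter and 0.17 with the authors' ratios, and ran from -0.025 to 0.059 with a mouse left out. The sterol minus fatty acid median, -0.11, became 0.030 with the authors' ratios, which hold 4 genes of each group there. The C93F fatty acid median, 0.12 over 2 genes, was -0.0095 with no filter, over 13. Cyp51 in C93F was at -0.80 with local background subtraction and -0.78 in the authors' ratios. None of the ratios recomputed for Scd2, Elovl5, Hmgcs1, Fads2 and Cyp51 changed sign; the last 3 were added after seeing the data. Of 178 values recomputed with every mouse kept, 156 were counted as unchanged, on the same side of the pair of limits or within the spread. With a mouse left out 71 of 76 were. A median within its spread was so counted even where its sign turned. The A227T sterol median did so at -0.0045 with no background correction and at -0.025 without mouse 3. The C93F sterol median, -0.0043 as reported, did so at 0.015 with median centring and at 0.082 without mouse 2. Medians under the array model equal the reported ones, so counting them as unchanged adds nothing.

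The labels number the mice 1 to 4 in each line. With the replicate block, 0 genes were called between the lines, as without it, and 114 elements, as without it. Same-numbered mice deviated with r from -0.063 to -0.001, so the numbers pair nothing. Scan date as a block was not run, since the scans carry no dates. Low signal over background limits what could be tested in C93F.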
